A study of Mus musculus with 3 samples.

Results

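The levels of 40 genes of mitosis and DNA replication were read from bulk RNA sequencing counts of mouse lung. The genes were taken by symbol from a fixed list, 23 acting mainly in mitosis and 17 in the copying of DNA, out of 53342 genes in the table. All 40 were found, and all 40 passed the filter on low counts that left 17636 genes for testing. The samples were the lungs of 3 male C57Bl/6 mice, called mouse 4, 5 and 6 from the last digit of the titles. Microparticles of Mycobacterium abscessus were given to each mouse through the trachea. The particles equalled 1000000 bacteria and came in 50 µL. All 3 animals then received 5 µg of MIA-602 under the skin daily for 3 weeks. MIA-602 blocks the receptor for growth hormone-releasing hormone. Challenge and drug were thus shared by the 3 samples, which form 1 group. Challenged mice without the drug and unchallenged mice were not analysed here, so the values below are levels and differences between individual animals, and no effect of either agent can be read from them. No age is given.

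A cell that commits to division loads the MCM helicase onto its replication origins with the help of CDC6 and CDT1, and the origins fire once S phase kinases act. Cyclin B with CDK1 then drives mitosis, and the anaphase-promoting complex (APC/C), a ubiquitin ligase, ends it by marking cyclin B and securin for destruction. Genes of both stages are largely silent in resting cells, held down by the RB family and the DREAM complex. Replication genes are released through E2F sites, and mitotic genes later, by the MYB-MuvB complex and FOXM1, through an element called CHR (cell cycle genes homology region) that often lies near CCAAT boxes bound by NF-Y. Most epithelial and endothelial cells of the adult lung rest, while lymphocytes, plasmablasts and some macrophages of an inflamed lung can divide.

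Promoter sequences are shown because the mitotic and the replication genes, which were chosen by function, also differed in these elements. Windows from RefSeq (build GRCm38.p6, 250 bases before to 50 after the start) matched 33 of the 40 genes by symbol, 19 mitotic and 14 replication genes. A gene counted as holding an element if any of its windows held one of its words on either strand. The CHR words were TTTGAA and TTCGAA. The words searched for E2F were TTCCCGC, its variant TTGGCGC, a form read as TTCGCGC and lastly TTGCCGC, and overlapping matches on opposite strands were each counted. A CHR word stood in 15 of the 19 mitotic genes (78.9%) and in 2 of the 14 replication genes (14.3%), against 21.7% of the 27025 genes with a window of that length. An E2F word stood in 4 of 19 mitotic genes (21.1%) and in 9 of 14 replication genes (64.3%), against 10.9% of all genes. CCAAT stood in 17 of 19 (89.5%) and in 9 of 14 (64.3%), against 41.1%. All 15 mitotic genes with a CHR word also held CCAAT, a pair found in 9.65% of all genes. A match describes letters in a window and is not shown to be a binding site.

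The stretches printed here lie before the RefSeq start, end early where a GENCODE exon begins, and run 5′ to 3′ on the strand of the gene, with CHR, CCAAT and E2F words in capitals. They belong to the 3 mitotic genes with a CHR word and the 3 replication genes with an E2F word in that stretch that had the highest level per kilobase of exon, among genes with 1 window. Mki67, Ccnb2, Cdc20 and Mcm6 lie on the minus strand at chr7:135716380-135716629, chr9:70421555-70421804, chr4:118437353-118437593 and chr1:128359706-128359955, and Rrm2 and Mcm5 on the plus strand at chr12:24708004-24708240 and chr8:75109259-75109508.
Mki67: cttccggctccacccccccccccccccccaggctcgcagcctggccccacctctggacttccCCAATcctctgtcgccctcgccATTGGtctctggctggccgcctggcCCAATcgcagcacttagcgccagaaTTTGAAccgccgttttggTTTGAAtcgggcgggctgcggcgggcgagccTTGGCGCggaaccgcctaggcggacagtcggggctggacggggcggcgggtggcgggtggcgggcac
Ccnb2: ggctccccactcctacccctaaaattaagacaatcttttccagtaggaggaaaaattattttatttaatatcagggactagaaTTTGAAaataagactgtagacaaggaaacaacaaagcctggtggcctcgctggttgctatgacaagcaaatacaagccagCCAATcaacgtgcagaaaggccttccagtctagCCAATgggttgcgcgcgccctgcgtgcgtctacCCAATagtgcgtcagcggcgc
Cdc20: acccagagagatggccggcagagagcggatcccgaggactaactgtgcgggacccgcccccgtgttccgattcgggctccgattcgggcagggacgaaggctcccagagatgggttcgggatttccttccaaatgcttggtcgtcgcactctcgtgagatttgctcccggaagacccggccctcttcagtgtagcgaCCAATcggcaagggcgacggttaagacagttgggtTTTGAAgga
Mcm6: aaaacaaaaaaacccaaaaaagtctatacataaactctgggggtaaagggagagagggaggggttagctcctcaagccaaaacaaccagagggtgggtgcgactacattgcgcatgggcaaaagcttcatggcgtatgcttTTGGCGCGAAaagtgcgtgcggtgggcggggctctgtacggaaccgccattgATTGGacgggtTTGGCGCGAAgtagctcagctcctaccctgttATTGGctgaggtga
Rrm2: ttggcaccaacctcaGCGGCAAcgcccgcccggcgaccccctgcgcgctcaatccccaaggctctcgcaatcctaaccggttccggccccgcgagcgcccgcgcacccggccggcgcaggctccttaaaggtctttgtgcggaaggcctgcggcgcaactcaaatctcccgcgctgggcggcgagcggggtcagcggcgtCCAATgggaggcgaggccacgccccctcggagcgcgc
Mcm5: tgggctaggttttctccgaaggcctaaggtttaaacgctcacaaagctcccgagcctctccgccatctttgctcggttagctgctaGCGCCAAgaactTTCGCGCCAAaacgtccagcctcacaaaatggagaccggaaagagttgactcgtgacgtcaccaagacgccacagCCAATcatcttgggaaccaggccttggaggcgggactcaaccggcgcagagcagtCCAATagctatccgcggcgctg
In Mki67 the CHR word TTTGAA began 116 and again 98 bases before the start, downstream of 3 CCAAT matches, and an E2F word followed at 67 bases. Ccnb2 had its CHR word 167 bases before the start, upstream of CCAAT boxes at 87, 54 and 21 bases. In Cdc20 the order was CCAAT at 53 bases and CHR at 18 bases before the start. Mcm6 had E2F words at 109 and 46 bases before the start, each overlapped by another on the opposite strand. Mcm5 had 3 E2F matches between 164 and 143 bases before the start, and Rrm2 had 1, at 235 bases.

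The libraries held between 31579465 and 43845715 counts. Levels are counts per 1000000 (CPM) scaled by the trimmed mean of M-values (TMM), given for mice 4, 5 and 6 in that order or as the mean ± SD over them (n = 3). The lung label was checked by 6 markers of alveolar type 2 cells, the makers of surfactant, which summed to 21466, 28923 and 26047 CPM. Library 4 held more RNA of skeletal muscle and stratified epithelium than the others. The 8 muscle markers summed to 5038, 1866 and 1605 CPM and the 7 stratified epithelium markers to 381, 144 and 123 CPM, none of them at 0 in all mice. The part of these tissues in the differences between mice was not tested. In bulk RNA fewer cycling cells and less RNA per cycling cell cannot be told apart.

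Each of the 40 genes was above 1 CPM in every lung, and 35 were above 5 CPM in every lung. Counts ran from 77 for Ccne2 in mouse 6 to 4095 for Mki67 in mouse 4. The 40 genes summed to 915, 738 and 890.5 CPM, or 0.0899%, 0.0748% and 0.0894% of all counts. Mouse 5 was the lowest in sum, and it was also the lowest in nearly every single gene. Mouse 4 lay above mouse 5 in all 40 genes, as it did in 50.5% of the genes tested, and mouse 6 lay above mouse 5 in 38 of 40, against 49.9%. Mouse 5 had the lowest value in 38 genes, against 36.8% of the genes tested, and the highest in 0 of 40, against 36.4%. The exceptions were Cenpf and Ccne2, lowest in mouse 6 (2 of 40, against 29.9%). The order mouse 4, mouse 6, mouse 5 was held by 23 of 40 genes (19.7% of the genes tested) and the order mouse 4, mouse 5, mouse 6 by those 2 exceptions (13.7%). The counts of 40 and 38 were the same with DESeq2 size factors and with library totals alone. Dividing cells transcribe these genes together, so the 40 genes are not independent of one another.

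**Figure D1:**
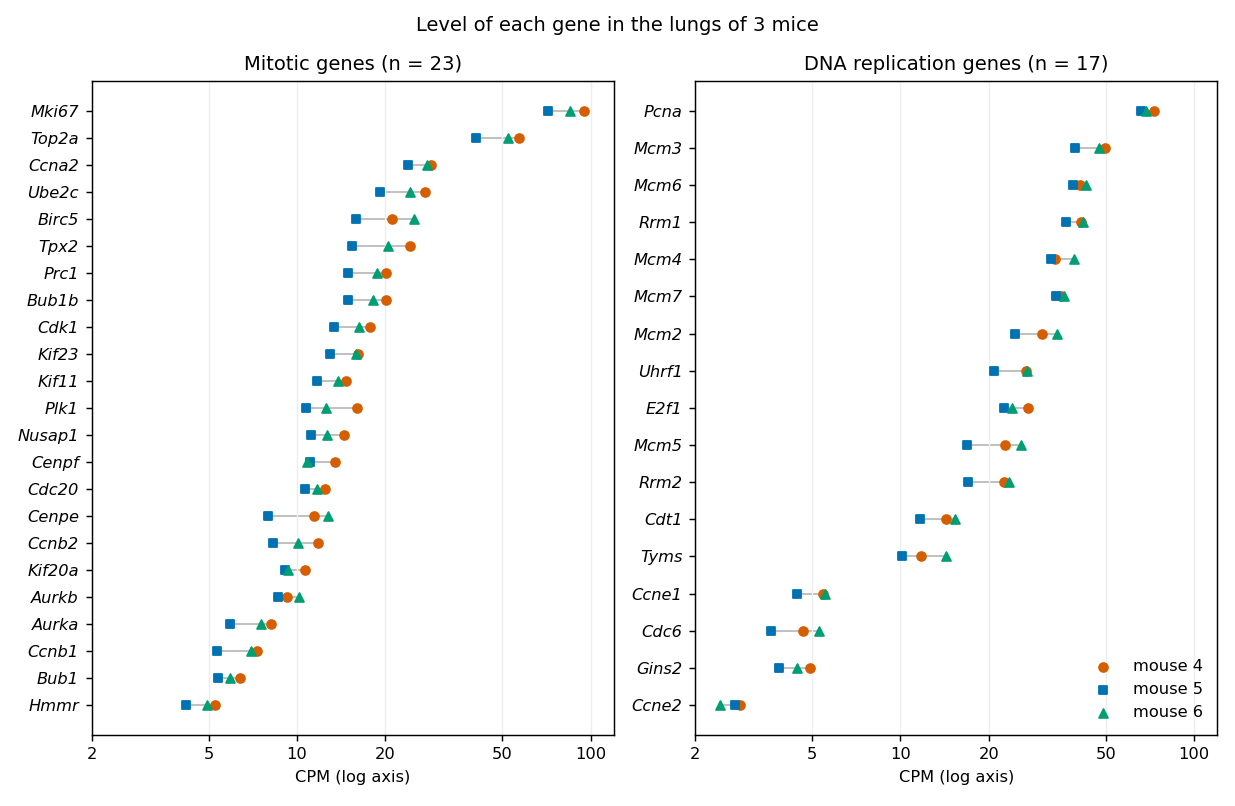
Level of each of the 23 mitotic genes (left) and 17 DNA replication genes (right) in CPM on a log axis, with 1 point per mouse and a grey line from the lowest to the highest. Mouse 5 (blue squares) is the lowest point for 38 of the 40 genes, and mouse 4 (orange circles) is the highest for 20 of the mitotic genes but for 5 of the replication genes.

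Whether a gene differed between the libraries by more than the sampling of reads was asked with a chi-square test of its 3 counts against library size, adjusted by Benjamini-Hochberg over all genes tested. At an adjusted p under 0.05, 31 of the 40 genes did, against 63% of the genes tested. The share was 67.8% among the 11310 tested genes within the same range of mean CPM. By stage, 18 of 23 mitotic and 13 of 17 replication genes passed. The test compares these libraries and not conditions, and it finds small differences more readily in genes with many counts. Leaving out mouse 5, 12 genes passed the threshold, against 38.9% of genes tested. In the pair of mice 4 and 5, 28 genes passed (50.2% of genes tested in either direction), 19 mitotic and 9 replication genes, all of them higher in mouse 4 (24.8%). In the pair of mice 5 and 6, 26 passed (42.7%), 15 mitotic and 11 replication genes, all of them higher in mouse 6 (21%).

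Mki67 and Top2a had the most counts of the mitotic genes. Mki67 (ENSMUSG00000031004, chromosome 7, 135689784 to 135716361 in build mm10, as for all gene positions here) encodes Ki-67, the protein that coats mitotic chromosomes and is the standard mark of cycling cells, and was measured at 95.1, 71.4 and 85.3 CPM in mice 4, 5 and 6. Top2a (ENSMUSG00000020914, chromosome 11, 98992943 to 99024189), the topoisomerase that untangles replicated chromosomes, was measured at 57, 40.7 and 52.5 CPM. Both were lowest in mouse 5 and highest in mouse 4, and both varied beyond counting noise (chi-square, adjusted p = 5.11e-28 and 5.58e-23).

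Mitotic cyclins and their kinase kept a common order of mice. Cyclin A2, Ccna2, which serves S phase and the entry into mitosis, had 28.6, 23.9 and 27.7 CPM. Cdk1, the kinase that drives mitosis, had 17.7, 13.4 and 16.3 CPM. Its partners Ccnb2 and Ccnb1 had 11.8, 8.27 and 10.1 CPM, and 7.31, 5.34 and 7.0 CPM. All 4 genes were highest in mouse 4 and lowest in mouse 5. All 4 varied beyond counting noise (adjusted p from 1.30e-05 for Ccnb2 to 0.00333 for Ccnb1), a test that does not show which mice differ. Mouse 4 lay above mouse 6 by 1.03-fold in Ccna2 to 1.17-fold in Ccnb2. In pairs, all 4 genes differed beyond counting noise between mice 4 and 5 (50.2% of genes tested) and between mice 5 and 6 (42.7%). None of them did between mice 4 and 6. The levels of the 2 B cyclins can be set side by side per kilobase of exon. On that scale Ccnb1 was at 0.237 ± 0.0140 of the level of Ccnb2, or at 0.401 ± 0.0237 when only the principal transcript (APPRIS) gave the length. Ccnb1 was at 0.484 ± 0.0180 of the level of Cdk1 per kilobase of exon, and Ccna2 at 4.25 ± 0.330 times that of Ccnb1. Ccna2 shares 12.5% of its exon bases with Exosc9 on the opposite strand, at 29.1 ± 0.915 CPM, so its level is uncertain if counting ignored strand.

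All 5 mitotic kinase genes were lowest in mouse 5, and 3 of the 5 varied beyond counting noise, near the share of 63% over the genes tested. Bub1b, which encodes the checkpoint protein BubR1, had 20.1, 15 and 18.1 CPM in mice 4, 5 and 6, and the checkpoint kinase Bub1 had 6.41, 5.39 and 5.93 CPM. Plk1, the polo-like kinase of centrosomes and mitotic entry, had 16, 10.7 and 12.6 CPM. Aurka, the kinase of spindle poles, had 8.15, 5.92 and 7.54 CPM, and Aurkb, the kinase of the chromosomal passenger complex, had 9.26, 8.63 and 10.2 CPM. Plk1, Bub1b and Aurka passed the threshold (adjusted p = 1.92e-09, 1.15e-06 and 0.00196), while Aurkb and Bub1 missed it (adjusted p = 0.163 and 0.237). Mouse 4 had the highest value in 4 of the 5 and mouse 6 in Aurkb. Per kilobase of exon Bub1 was at 0.329 ± 0.0220 of the level of Bub1b. Aurka was at 0.895 ± 0.116 of the level of Aurkb on that scale, above it in mouse 4 (1.02) and below it in mice 5 and 6 (0.798 and 0.864).

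Of the partners of the anaphase-promoting complex, its activator Cdc20 had 12.4, 10.6 and 11.7 CPM in mice 4, 5 and 6 and missed the threshold (adjusted p = 0.0935). Ube2c (ENSMUSG00000001403, chromosome 2, 164769898 to 164778822), the ubiquitin-conjugating enzyme that works with the complex, had 27.3, 19.1 and 24.2 CPM (adjusted p = 3.26e-12). Its exons share 592 bases, 22.8% of their length, with those of Tnnc2, a troponin of skeletal muscle on the opposite strand, which had 437, 167 and 146 CPM. Whether counting used strand is not given in the sources used here, and over those bases reads of both genes cannot be told apart. Mouse 4 was highest in both genes, while mouse 6 lay above mouse 5 in Ube2c and below it in Tnnc2.

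Kinetochore and spindle genes held the 2 largest coefficients of variation (CV, the SD as a percent of the mean) of the 40 genes. Cenpe, a kinesin of the kinetochore, had 11.5, 7.99 and 12.7 CPM in mice 4, 5 and 6, a CV of 22.8%, and mouse 6 lay 1.59-fold above mouse 5. Tpx2, which brings Aurora A to the spindle, had 24.2, 15.4 and 20.4 CPM, a CV of 22.1%, and mouse 4 lay 1.57-fold above mouse 5. Mouse 5 was the low sample in both. Cenpf, a large kinetochore protein, had 13.5, 11.1 and 10.8 CPM, with mouse 4 above the other two. Kif11, the kinesin that pushes spindle poles apart, had 14.7, 11.7 and 13.8 CPM. The microtubule binders Nusap1 and Hmmr had 14.4, 11.2 and 12.7 CPM, and 5.27, 4.18 and 4.95 CPM. Hmmr was the 1 gene of these 6 that missed the threshold for counting noise (adjusted p = 0.116).

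Among genes of the central spindle and cytokinesis, Birc5 stood apart in the order of the mice. Birc5, or survivin, a subunit of the passenger complex, had 21.1, 15.9 and 25 CPM in mice 4, 5 and 6, with mouse 6 1.57-fold above mouse 5. Prc1, which bundles microtubules of the central spindle, had 20.2, 14.9 and 18.7 CPM, and Kif23, the kinesin of centralspindlin, had 16.1, 13 and 15.9 CPM. Kif20a, the kinesin that brings the passenger complex to the midzone, had 10.7, 9.13 and 9.33 CPM. Of its exon bases 29.3% are shared with Cdc23 on the opposite strand, at 38.3 ± 0.459 CPM, so the level of Kif20a is uncertain too. Birc5, Prc1 and Kif23 passed the threshold for counting noise (adjusted p = 6.55e-15, 4.56e-07 and 0.00126) and Kif20a missed it (adjusted p = 0.0831). Mouse 6 was highest in Birc5 and mouse 4 in the other 3.

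The 6 MCM subunits, which form a ring with 1 copy of each, all had their lowest value in mouse 5. Mcm3 (ENSMUSG00000041859, chromosome 1, 20802968 to 20820312) was measured at 49.7, 39.2 and 47.3 CPM in mice 4, 5 and 6, Mcm6 at 40.8, 38.8 and 43 CPM and Mcm4 at 33.6, 32.5 and 39 CPM. Mcm7 was measured at 35.1, 33.8 and 36 CPM, Mcm2 at 30.4, 24.5 and 34.2 CPM and Mcm5 at 22.6, 16.9 and 25.7 CPM. Mouse 6 was highest in 5 of the 6, the exception being Mcm3, where mouse 4 was. The size of the gap ran over a range among these subunits of the same ring, which was not tested. Mcm5 was 1.52-fold and Mcm2 1.40-fold higher in mouse 6 than in mouse 5, whereas Mcm6 and Mcm7 were 1.11-fold and 1.06-fold higher. Mcm7 missed the threshold for counting noise (adjusted p = 0.368). It shares 7.25% of its exon bases with Ap4m1 on the opposite strand, at 38.1 ± 1.24 CPM, so its level and spread are uncertain if counting ignored strand. In level per kilobase of exon the subunits ran from 4.27 ± 0.706 CPM for Mcm2 to 12.1 ± 1.47 for Mcm3, and per kilobase of the principal transcript from 8.19 ± 1.68 for Mcm5 to 15 ± 1.81 for Mcm3.

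Genes that license and fire origins also had their lowest value in mouse 5. Cdt1, a loader of the helicase, had 14.3, 11.7 and 15.3 CPM in mice 4, 5 and 6, and its partner Cdc6 4.67, 3.62 and 5.27 CPM. Gins2, a subunit of the GINS complex that activates the helicase, had 4.92, 3.87 and 4.45 CPM. Of the exon bases of Gins2, 67.3% are shared with Gse1, a gene on the opposite strand at 89.4 ± 4.69 CPM, so the level of Gins2 is uncertain. Cdc6 and Cdt1 passed the threshold for counting noise (adjusted p = 0.00938 and 0.000303) and Gins2 missed it (adjusted p = 0.124). Per kilobase of exon Cdc6 was at 0.196 ± 0.0102 of the level of Cdt1.

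Pcna (ENSMUSG00000027342, chromosome 2, 132249162 to 132253314), the sliding clamp of the replication fork, had the highest level per kilobase of exon of the 40 genes, at 28.7 ± 1.46 CPM. It had 72.8, 65.8 and 68.3 CPM, and its CV of 5.09% was the second smallest after that of Mcm7 (3.15%). With counts of at least 2167 this small difference still exceeded counting noise (adjusted p = 0.00182). Pcna-ps2, a pseudogene copy, had 31, 20 and 16 counts. Uhrf1, which carries DNA methylation through replication, had 26.7, 20.7 and 27.1 CPM and a CV of 14.3%. Mouse 5 was lowest in both genes.

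The enzymes of nucleotide supply were each highest in mouse 6 and lowest in mouse 5. Rrm1, the large subunit of ribonucleotide reductase, had 41.2, 36.5 and 41.9 CPM in mice 4, 5 and 6. Its cell-cycle-regulated small subunit Rrm2 had 22.5, 17 and 23.4 CPM, and thymidylate synthase, Tyms, had 11.7, 10.1 and 14.3 CPM. All 3 passed the threshold for counting noise (adjusted p = 0.00102, 7.22e-09 and 1.41e-05), a test that does not show which mice differ. Mouse 4 was at 0.984, 0.964 and 0.821 of the level of mouse 6 in Rrm1, Rrm2 and Tyms. Tyms, but not Rrm1 or Rrm2, differed beyond counting noise between mice 4 and 6. Between mice 4 and 5, Rrm1 and Rrm2 did (50.2% of genes tested) and Tyms did not. Between mice 5 and 6 all 3 did (42.7%). Rrm2 was at 2.08 ± 0.198 times the level of Rrm1 per kilobase of exon but at 0.954 ± 0.0906 times per kilobase of the principal transcript, so the order of the subunits depended on the length used.

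Regulators of the passage from G1 to S phase did not share 1 order of mice. E2f1, an activating E2F factor, had 27.1, 22.5 and 23.9 CPM in mice 4, 5 and 6 (adjusted p = 0.000344), with mouse 4 highest. Of the E cyclins, which activate CDK2, Ccne1 had 5.43, 4.45 and 5.52 CPM and Ccne2 2.83, 2.74 and 2.43 CPM. Ccne2 shares 17.4% of its exon bases with Ints8, a gene on the opposite strand at 30.7 ± 1.43 CPM, so its level and its ratio to Ccne1 are uncertain. Neither passed the threshold for counting noise (adjusted p = 0.121 and 0.617). The CV of Ccne2, 7.92%, lay within the 10.2% that counting alone gives at its depth. Per kilobase of exon Ccne1 was at 2.55 ± 0.425 times the level of Ccne2, and at 2.91 ± 0.487 times per kilobase of the principal transcript.

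**Figure D2:**
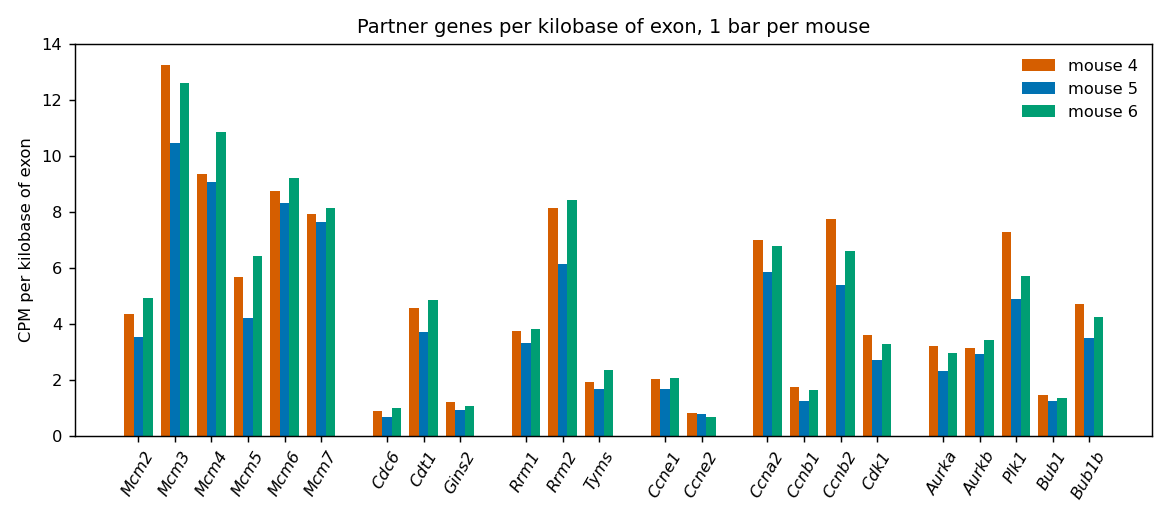
Levels of 23 genes that act as partners, in CPM per kilobase of exon, with 1 bar per mouse (orange, blue and green for mice 4, 5 and 6). As means over the mice the MCM subunits lie between 4.27 and 12.1, Cdc6 at 0.864 lies well under Cdt1 at 4.39, and Ccnb1 at 1.55 well under Ccnb2 at 6.58.

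Ranked by level per kilobase of exon, the 40 genes ran from Pcna, Mcm3, Mcm4 (9.76 ± 0.962 CPM), Ube2c (9.06 ± 1.60), Mcm6 (8.75 ± 0.452), Mki67 (8.34 ± 1.18), Mcm7 (7.90 ± 0.249), E2f1 (7.78 ± 0.743), Rrm2 (7.57 ± 1.24) and Ccnb2 (6.58 ± 1.17) down to Gins2 (1.08 ± 0.128), Hmmr (0.884 ± 0.104), Cdc6 (0.864 ± 0.159), Ccne2 (0.763 ± 0.0604) and Cenpf (0.763 ± 0.0955). Pcna lay above Mcm3 without overlap between the mice, while in the other 38 of 39 steps the ranges of neighbouring genes overlapped. With the length of the principal transcript 7 of the 10 highest and 4 of the 5 lowest genes were shared. The choice of length moved the level of some genes several-fold. Birc5 was at 6.08 ± 1.34 CPM per kilobase of exon and 21.8 ± 4.81 per kilobase of the principal transcript, and Ube2c at 9.06 ± 1.60 and 24.4 ± 4.29.

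The median replication gene stood above the median mitotic gene in each lung. Per kilobase of exon the difference of the medians, on the log2(CPM per kilobase + 0.5) scale, was 0.60, 0.54 and 0.85 in mice 4, 5 and 6, or 0.67 ± 0.16 (SD, n = 3). On log2(CPM + 0.5), without length, it was 0.84, 0.86 and 0.99, or 0.90 ± 0.08, and 0.35 with means over the genes in place of medians. The summed CPM of the stages was nearly equal, 469, 353 and 433 CPM for the mitotic and 446, 385 and 457 CPM for the replication genes. The mitotic sum was the larger in mouse 4 and the replication sum in mice 5 and 6. Mitotic genes took 51.2% of all counts of the 40 genes in mouse 4 (95% exact Clopper-Pearson interval 50.7% to 51.7%), 47.8% in mouse 5 (47.2% to 48.4%) and 48.7% in mouse 6 (48.1% to 49.3%). This share needs no scaling between libraries, and the interval of mouse 4 did not overlap those of mice 5 and 6. Intervals cover counting error only.

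The differences between mice were small for most genes. Mouse 4 lay above mouse 5 by a median of 1.26-fold over the 40 genes (range 1.03 to 1.57), 1.33-fold in mitotic and 1.22-fold in replication genes. Mouse 6 lay above mouse 5 by a median of 1.21-fold (range 0.887 to 1.59), and by 1.21-fold in each stage. The median over all genes tested was 1.0 for both pairs. A gap of 1.5-fold was reached by Tpx2 alone between mice 4 and 5, 1 of 40 genes, against 8.2% of the genes tested. Cenpe, Birc5 and Mcm5, 3 of 40, reached it between mice 6 and 5, against 5.5%. In the opposite direction, 0 of 40 genes lay 1.5-fold higher in mouse 5 than in mouse 4 (7.61% of genes tested) or in mouse 6 (4.46%). Between mice 4 and 6, 0 of 40 reached it in either direction, against 5.3% of genes tested with mouse 4 higher and 5.48% with mouse 6 higher.

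Between mice 4 and 6 the direction parted by stage, a difference that was not tested. Mouse 4 was highest in 20 of 23 mitotic genes and in 5 of 17 replication genes, against 33.4% of the genes tested. Mouse 6 was highest in 3 mitotic genes, Birc5, Cenpe and Aurkb, and in 12 replication genes, against 30.2%. The median ratio of mouse 4 to mouse 6 was 1.08 in mitotic genes, 0.975 in replication genes and 0.999 over all genes tested. With library totals alone mouse 4 lay above mouse 6 in 19 mitotic and 5 replication genes, against 7705 of the 17636 genes tested. On the counts of these mice, 12 of the 40 genes differed beyond counting noise, a smaller share than the 38.9% of all genes tested. Mki67, Top2a, Plk1, Tpx2, Ube2c, Cenpf and the replication gene E2f1 were higher in mouse 4 (7 of 40, against 20.5%). Mcm2, Mcm4, Mcm5, Tyms and the mitotic gene Birc5 were higher in mouse 6 (5 of 40, against 18.4%).

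**Figure D3:**
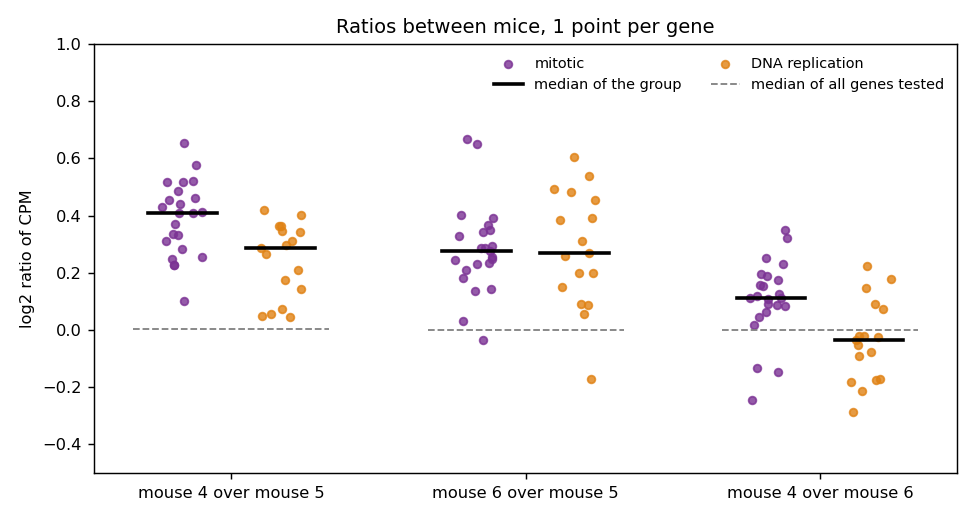
The log2 ratio of CPM between each pair of mice, with 1 point per gene for 23 mitotic (purple) and 17 DNA replication genes (orange), the median of each as a black bar and the median of all 17636 genes tested as a dashed line. Both medians lie above the dashed line in the pairs with mouse 5, and in the pair of mice 4 and 6 the mitotic median lies above it (1.08-fold) and the replication median below it (0.975-fold).

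No gene of the 40 was called as varying between mice more than genes of its level by edgeR's quasi-likelihood fit. At an adjusted p under 0.05 the fit called 0 of 40 and 0% of the 17636 genes tested. It also called 0 of the 8 muscle markers, which summed to 5038, 1866 and 1605 CPM in mice 4, 5 and 6. A lack of calls therefore does not show that a gene varied little. At an unadjusted p under 0.05 it called 0 of the 40 and 867 of all genes, and the smallest unadjusted p among the 40 was 0.0823, for Birc5. Limma called 0 of the 40, with 0 of the 40 and 879 of all genes at an unadjusted p under 0.05. DESeq2 marked 0 of the 40 and 102 of all genes as dispersion outliers. The median CV was 13.2% over the 40 genes, 14.2% in mitotic and 11.9% in replication genes. Over all genes tested it was 11.2%, and over the 11310 tested genes within the same range of mean CPM it was 9.69%.

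**Figure D4:**
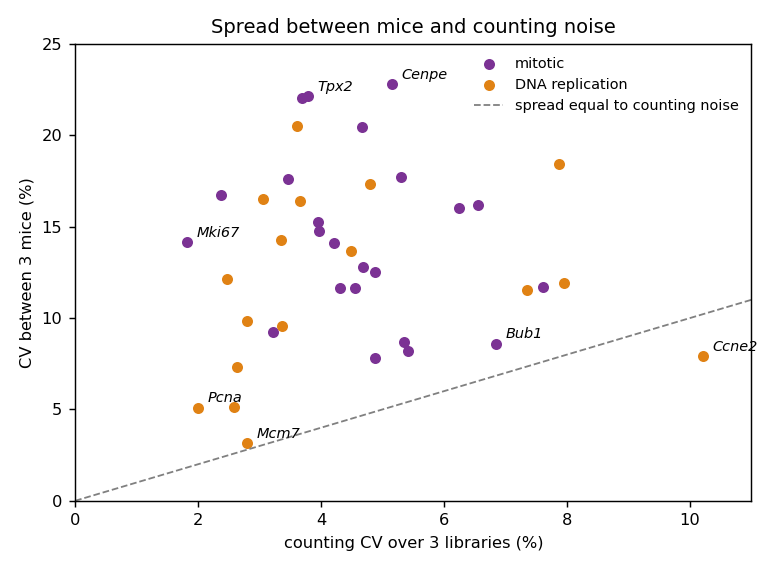
The CV between 3 mice (%) against the CV that counting alone would give over the 3 libraries (%), with 1 point per gene (purple for mitotic, orange for DNA replication) and a dashed line where both are equal. Cenpe (22.8%) and Tpx2 (22.1%) lie far above the line, Mcm7 (3.15%) lies near it and Ccne2 (7.92%) below it.

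Other genes of the cell cycle were read from 10 lists of 163 genes in all, and all 163 passed the filter on low counts. In edgeR 0 of the 163 had excess spread, as did 0% of all genes tested. Of the 163, 103 varied beyond counting noise, close to the share of 63% over the genes tested. Mouse 4 exceeded mouse 5 in 101 of the 163 (50.5% of the genes tested) and mouse 6 exceeded mouse 5 in 108 (49.9%). Past 1.5-fold mouse 4 exceeded mouse 5 in 8 of 163, a smaller share than the 8.2% of genes tested. Among them were E2f8, Dlgap5, Ckap2 and Foxm1, and also Cdkn2a, which encodes an inhibitor of cell cycle kinases. Mouse 5 exceeded mouse 4 past 1.5-fold in 1, Cdkn1c, against 7.61%. The counts for single lists that follow are to be read against the same shares, 63% beyond counting noise, 50.5% with mouse 4 above mouse 5 and 36.8% lowest in mouse 5.

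Spindle and kinetochore genes outside the 40 mostly had their lowest value in mouse 5. Of 25 mitotic kinesins and spindle partners, 17 did and mouse 4 exceeded mouse 5 in 19, while the 15 that varied beyond counting noise were near the share of 63% over the genes tested. Dlgap5, a spindle protein, had 6.78, 3.79 and 5.87 CPM in mice 4, 5 and 6, and Ckap2, which binds microtubules, had 8.26, 4.92 and 7.95 CPM. By mean CPM the list began with the phosphatase Cdc25b (38.4 ± 3.80 CPM), Racgap1, the partner of Kif23 (23 ± 2.31 CPM), the centrosome kinase Nek2 (20.6 ± 2.37 CPM) and the citron kinase Cit (15.3 ± 1.08 CPM), and mouse 4 was lowest in Cdc25b, Nek2 and Cit. Of 21 kinetochore and centromere genes, 15 were lowest in mouse 5 and mouse 4 exceeded mouse 5 in 19, and the 13 that varied beyond counting noise were again near that share. The passenger complex gene Incenp had 37.7, 27.5 and 32.9 CPM, whereas the checkpoint gene Bub3 had 72.3, 72.3 and 71 CPM and Mis12 33, 32.6 and 32.6 CPM. Zwint, a kinetochore protein, had 52.5 ± 3.16 CPM.

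Fork and polymerase genes mostly lay higher in mouse 6 than in mouse 4, as the MCM genes did. Mouse 4 exceeded mouse 6 in 5 of the 25, against 49.7% of the genes tested. In the same list 17 were lowest in mouse 5, and 19 varied beyond counting noise. The clamp loader gene Rfc2 had 53.9, 50.7 and 60.6 CPM in mice 4, 5 and 6, and Pold3, a subunit of polymerase delta, had 47.3, 41.8 and 49.1 CPM. Rpa1, which coats single-stranded DNA, had 45.3, 53.9 and 54.9 CPM, and Rfc1 41.8, 47.4 and 46.2 CPM, both lowest in mouse 4. Among 16 genes of origin recognition and helicase partners, 8 were lowest in mouse 5 and 9 varied beyond counting noise. Topbp1 had 41.3 ± 1.22 CPM, and the origin recognition subunits Orc4 and Orc3 had 29.6, 34.5 and 29.1 CPM, and 32.8, 30.3 and 28.5 CPM. Gins4 had 21.8 ± 0.871 CPM. Orc1 was the 1 gene of the 163 under 1 CPM in any mouse, at 0.789, 0.774 and 0.851 CPM. In the DNA damage checkpoint list 6 of 10 genes were lowest in mouse 5 and 3 varied beyond counting noise. Timeless had 28.9 ± 2.87 CPM, the kinase Atr 19.9 ± 1.17 CPM, Tipin 16.6 ± 2.45 CPM and the kinase Chek2 9.42, 8.52 and 9.05 CPM.

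In the list of APC/C subunits mouse 4 exceeded mouse 5 in fewer genes than the 50.5% of all genes tested. For condensin and cohesin the count was near that share. Of 15 APC/C subunit and partner genes, mouse 4 exceeded mouse 5 in 3, and 5 varied beyond counting noise. Anapc5 had 202 ± 3.94 CPM, Anapc2 91.3 ± 2.35 CPM, Anapc1 63 ± 3.75 CPM and Anapc11 62.7 ± 1.26 CPM. Of 15 condensin and cohesin genes, mouse 4 exceeded mouse 5 in 7, 10 varied beyond counting noise, and 4 held the order mouse 4, mouse 6, mouse 5 (19.7% of genes tested). The cohesin genes Rad21, Smc1a and Stag2 had 114 ± 13.3 CPM, 95 ± 3.81 CPM and 84.9 ± 10.9 CPM, and the condensin gene Ncaph2 94.6 ± 2.22 CPM. The cohesin genes Rad21, Smc1a, Smc3, Stag1 and Stag2 were each lower in mouse 4 than in mouse 5. The condensin genes Ncapd2, Ncapg, Ncapg2, Smc2, Ncaph and Ncaph2 were higher in mouse 4, and Smc4 and Ncapd3 lower. Ncapd2 had 31.6, 23.3 and 29.9 CPM in mice 4, 5 and 6. In the same list separase, Espl1, which cuts cohesin at anaphase, had 18.3, 12.1 and 19.1 CPM and so was lowest in mouse 5. Of 10 G1 cyclins and kinases, mouse 4 exceeded mouse 5 in 6, 5 were lowest in mouse 5, and 9 varied beyond counting noise. Cyclin D1, Ccnd1, was lowest in mouse 4 at 195, 245 and 234 CPM in mice 4, 5 and 6, and Ccnd3, Ccnd2 and Cdk4 had 215 ± 12.3 CPM, 160.3 ± 8.85 CPM and 116 ± 5.01 CPM.

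Inhibitors of the cyclin-dependent kinases differed between mice in both directions. Mouse 4 exceeded mouse 5 in 2 of the 7, Cdkn1a and Cdkn2a, and 6 varied beyond counting noise. Cdkn1a, or p21, had 153, 105 and 109 CPM in mice 4, 5 and 6, highest in mouse 4, and Cdkn1c, or p57, had 24.1, 39.3 and 25.1 CPM, highest in mouse 5. Cdkn2a, with only 106, 48 and 49 counts, had 2.46, 1.33 and 1.55 CPM, 1.85-fold higher in mouse 4 than in mouse 5. Cdkn1b and Cdkn2d had 104 ± 8.57 CPM and 25.1 ± 0.263 CPM. Of 19 genes of the RB, DREAM and MYB-MuvB machinery, mouse 4 exceeded mouse 5 in 11, and 14 varied beyond counting noise. The chromatin protein Rbbp4 had 105 ± 2.44 CPM, the repressor E2f4 71 ± 3.64 CPM, the pocket protein Rbl2 56.8 ± 4.71 CPM and Tfdp2, a partner of E2F factors, 44.1 ± 8.18 CPM. Foxm1, which activates mitotic genes, had 14.7, 9.71 and 13.6 CPM, and the repressor E2f8 had 10.1, 5.56 and 8.58 CPM. Both held the order of most mitotic genes, mouse 4, mouse 6 and mouse 5.

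**Figure D5:**
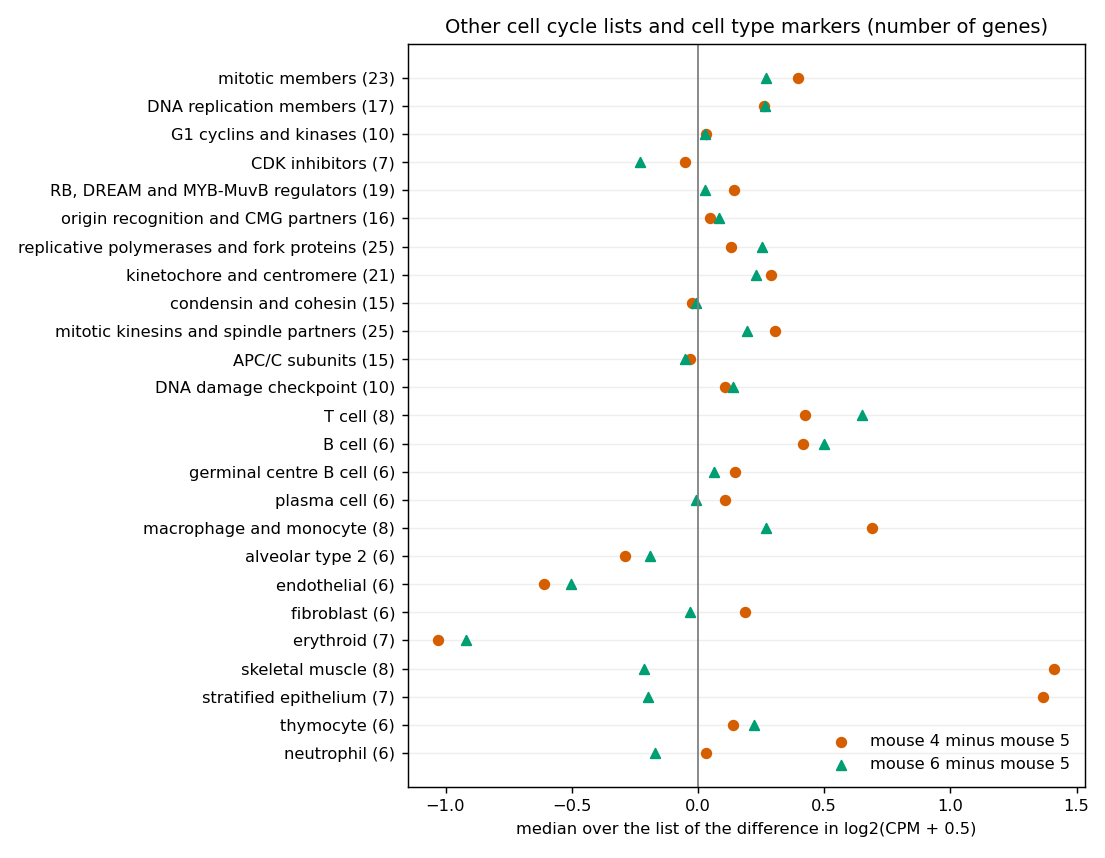
Median difference in log2(CPM + 0.5) over each list, mouse 4 minus mouse 5 (orange circles) and mouse 6 minus mouse 5 (green triangles), for the mitotic and replication genes, 10 other cell cycle lists and 13 lists of cell type markers, with the number of genes in parentheses. The mitotic genes lie at 0.40 and 0.27 and the replication genes at 0.26 and 0.27. T cell (0.42 and 0.65), B cell (0.42 and 0.50) and macrophage lists (0.69 and 0.27) also lie to the right, and endothelial and erythroid lists to the left. Skeletal muscle (1.41 and -0.21) and stratified epithelium (1.37 and -0.20) lie furthest right for mouse 4 but to the left for mouse 6.

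Markers of T cells, B cells and macrophages were mostly lowest in mouse 5, as the 40 genes were, while plasma cell and neutrophil markers had their lowest sums in mouse 6. Mouse 5 had less than mouse 6 of all 8 T cell markers and less than mouse 4 of 7, with sums of 374, 276 and 431 CPM in mice 4, 5 and 6. The T cell kinase gene Lck had 71.4, 53.9 and 85.1 CPM and the coreceptor gene Cd4 64.7, 40.3 and 66.2 CPM. All 6 B cell markers were lowest in mouse 5, with sums of 318, 235 and 356 CPM, among them the receptor subunit Cd79a at 102, 68.3 and 115 CPM. Of 8 macrophage and monocyte markers, 7 held the order mouse 4, mouse 6, mouse 5, with sums of 2388, 1485 and 1840.4 CPM. Plasma cell markers summed to 903, 763 and 729 CPM, with 3 of 6 lowest in mouse 5, and neutrophil markers to 249, 217 and 164 CPM, with 1 of 6. The complement gene C1qa had 698, 425 and 581 CPM and the lysosomal gene Cd68 488, 247 and 301 CPM. No marker of these 5 lists was at 0 in all mice. The thymocyte gene Ptcra had 0 in every library. The part of these cells in the level of the 40 genes was not tested.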

How the data were processed

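The authors deposited whole-number counts for each Ensembl gene, not normalized, with a column for each mouse. Per the submitters' processing notes, STAR 2.5.2a, Trim Galore 0.6.2, bcl2fastq 2.17 and mm10 were used. Counting tool, annotation and strand setting: not given in the sources used here. The exons of 9 of the 40 genes overlap a protein-coding gene on the other strand. Besides those whose overlap is given above, they were Prc1 (11.1% of exon bases, with Rccd1), Nusap1 (4.24%, with Oip5) and Cdc20 (2.84%, with Elovl1). Their levels are uncertain to that extent. Symbols, 1-based coordinates and exon lengths came from GENCODE M21 (mm10), in which 99.8% of identifiers were found.

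CPM used TMM factors (edgeR 4.0.16, R 4.3.3) of 0.983, 1.01 and 1.00 from the 17636 genes kept by filterByExpr. Each gene's counts were tested against scaled library sizes by chi-square, and its quasi-dispersion against the trend by edgeR (intercept only, robust, upper-tail F test), with Benjamini-Hochberg adjustment over all genes tested and a threshold of 0.05. Limma 3.58.1 and DESeq2 1.42.0 were alternatives. Both tests were checked on simulated data. The spread in those data was set beforehand and not taken from these mice, so the check does not show how the tests perform on these counts. Python 3.11.15 computed levels and intervals. The 3 samples are taken as separate mice from the labels, and with 1 group no contrast could be fitted. Intervals cover counting error only and treat each read as independent. No molecular identifiers are named for these counts. If some reads are copies of the same molecule, the intervals and the chi-square test understate the counting error. The 40 genes and the lists were chosen with earlier results of these data known. All 40 genes are named, with values in every mouse for the 10 highest and 5 lowest per kilobase, those past 1.5-fold between any 2 mice and at least 1 of each role. Of each other list up to 4 genes with the highest mean CPM are named. Further names were chosen after their values were seen.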

Additional observations from a re-analysis of the deposited data

How the results depend on the processing

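Of 56 recomputed values 46 stayed within the spread between mice or within 1.5 times the count reported. With 2-fold in place of 1.5-fold, 0 genes differed between mice 4 and 5 and 0 between mice 5 and 6. Leaving out each mouse in turn, between 12 (without mouse 5) and 28 (without mouse 6) of the 40 genes differed beyond counting noise. Per kilobase of exon the median log2 level was 1.88 for mitotic and 2.55 for replication genes, and their difference 0.67. Per kilobase of the principal transcript, an alternative chosen after seeing the data, the levels were 2.32 and 3.19. With means over genes in place of medians the replication level was 4.23 and the difference 0.35. The cause of these shifts is the change of scale or of summary. The number of all genes with excess spread in edgeR was 0, but 632 of 30751 with no filter on low counts and 13 of 17749 without mouse 4, and no gene of the 40 was among them. No paired analysis was possible because the 3 mice form 1 group. Depth limits the genes with the fewest counts, since counting alone gave a CV of 10.2% for Ccne2.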

Other observations

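Markers of endothelial and alveolar type 2 cells were highest in mouse 5, where most of the 40 genes were lowest. Mouse 5 had the highest value in all 6 endothelial markers, with sums of 1211, 1755 and 1277 CPM in mice 4, 5 and 6, and in all 6 alveolar type 2 markers. Pecam1, an adhesion molecule of endothelium, had 404, 545 and 426 CPM. Of the 7 erythroid markers, 6 were higher in mouse 5 than in mouse 4, with sums of 1469, 3201 and 1811 CPM, among them the haem enzyme Alas2 at 19.8, 40.5 and 21.2 CPM. Fibroblast markers summed to 2328, 2077 and 2175 CPM, in the order of the sums of the 40 genes. Single fibroblast markers mostly did not hold it: 1 of the 6 had the order mouse 4, mouse 6, mouse 5, and 2 were lowest in mouse 5. Germinal centre B cell markers summed to 149, 128 and 135 CPM, most of it from Bcl6, Fas and S1pr2, which other cells also express. These sums and those of the thymocyte markers were also lowest in mouse 5. Thymocyte markers summed to 77.8, 51.7 and 71.2 CPM, of which Cd1d1, also made by other cells, gave 67.9, 44.4 and 61.5 CPM.

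Pseudogene copies of the 40 genes had few counts. Ccnb2-ps had 5, 4 and 4 counts in mice 4, 5 and 6, Ccnb1-ps 1, 0 and 2, and Pcna-ps1 and Tyms-ps had 0 in every library.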
